A study of Mus musculus with 4 samples.

Results

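The platelet-derived growth factor (PDGF) genes measured here are the 4 ligand genes Pdgfa, Pdgfb, Pdgfc and Pdgfd and the 2 receptor genes Pdgfra and Pdgfrb, 6 of the 27998 genes in the count tables. They were taken by name as the ligands and receptors of the family. PDGF ligands are secreted dimers that pair and activate receptor tyrosine kinases on neighbouring cells. PDGF-A and PDGF-C act mainly through the receptor PDGFRα, PDGF-D mainly through PDGFRβ, and PDGF-B binds both. In growing vessels, endothelial cells release PDGF-B, which draws pericytes and smooth muscle cells carrying PDGFRβ to the vessel wall, while PDGFRα marks fibroblasts and the mesenchyme of the developing heart.

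RNA was counted in single cells from hearts of C57Bl6J mice, sorted as CD31+/CD45- to obtain endothelial cells. There was 1 library at each of 4 stages: embryonic day 12 (E12, 37 pooled animals), embryonic day 15 (E15, 48 animals), postnatal day 2 (P2, 21 animals) and adult (8 weeks, 6 animals). No group carried a mutation or a treatment. The suspensions were frozen before use, the embryonic cells were cleared of dead cells with a kit, the P2 and adult cells were sorted again for live cells, and the enzymes used for digestion differed with stage, so stage and handling cannot be told apart. With 1 library for each stage no test between stages was possible, and most comparisons are drawn within a library. Values of different libraries are set side by side as descriptions.

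The libraries held 5732 (E12), 6062 (E15), 5884 (P2) and 4242 (adult) barcodes, with a median of 1241, 1013, 4531.5 and 1510 unique molecular identifiers (UMIs), each UMI standing for 1 captured transcript. Any pair of libraries shared 25 to 60 barcode sequences, where 33.0 to 48.4 would be shared at random. For a group of cells the UMIs were summed, and a level is given as CPM, the UMIs of a gene for each 1000000 UMIs of that group. Brackets after a level or ratio hold the exact 95% interval, which covers counting error only and not the variation between cells or animals. CPM of one gene is compared between cells and not with that of another gene.

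Cells were put into classes by a few genes, and a cell could be in more than 1 class. Endocardial cells had more UMIs of Npr3 and Tmem108 than of Fabp4, Cldn5 and Aplnr. Coronary cells had at least 2 UMIs of the last 3 genes and more than of the first pair. Artery cells had at least 3 UMIs of Cxcl12, Glul, Alpl and Nebl, valve cells at least 2 of Cldn11, Enpp2 and Aqp8, and non-endothelial cells none of Pecam1, Cdh5 and Egfl7. Endocardial cells numbered 1716, 2115, 1082 and 75 from E12 to the adult, coronary cells 113, 1254, 4596 and 4077, and valve cells 21, 65, 427 and 22. Artery cells numbered 332, 69, 711 and 1875, and non-endothelial cells 2995, 1867, 13 and 133.

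Some of these names did not hold at every stage. At E12, 257 of the 332 artery cells (77.4%) had no UMI of Pecam1, Cdh5 or Egfl7, and at E15 41 of 69 (59.4%). In the E12 artery class 8 endothelial markers summed to 356 CPM, 8 fibroblast or mesenchyme markers to 3585 CPM and 10 mural markers to 1766 CPM. At P2 and in the adult the endothelial sum in the artery class was 5844 and 7551 CPM. The artery class is therefore read as artery cells only at P2 and in the adult and, where it overlapped the coronary class in 19 cells, at E15. For the embryonic libraries the whole class is called Cxcl12/Glul class. The figures by class and the ranking of like genes include it at all stages under the name artery. In the adult the rule took 1859 of the 4077 coronary cells (45.6%), at a median of 1776 UMIs against 1263.5 in the other coronary cells, so the adult class is a broad one. Gja5 and Gja4, artery genes that the rule did not use, were higher in artery than in other coronary cells by 12.5-fold (10.6-14.7) and 5.99-fold (5.57-6.44) at P2 and by 2.37-fold (1.87-3.04) and 2.35-fold (1.91-2.89) in the adult. The non-endothelial and endocardial classes overlapped at the embryonic stages. Of the endocardial cells 596 of 1716 (34.7%) at E12 and 545 of 2115 (25.8%) at E15 had no UMI of the 3 endothelial genes. The fibroblast or mesenchyme markers summed to 1399 CPM (E12) and 1127 CPM (E15) in the whole endocardial class. In endocardial cells with a UMI of the 3 genes they summed to 819 and 786 CPM. Median depths were 1288.5 and 1039 UMIs in these cells and 1276.5 and 1003 in the whole class. The kind of cell in the overlap was not tested. Of the non-endothelial cells 11 of 13 at P2 and 101 of 133 in the adult were also in the coronary class. The P2 non-endothelial class of 13 cells is too small for more than a few counts. Among valve cells 9 of 21 (42.9%) at E12 and 16 of 65 (24.6%) at E15 had no UMI of the 3 endothelial genes.

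RNA free in the suspension also adds UMIs to cells that do not make a transcript. The E12 table listed barcodes without a cell, and in the 156803 of them with fewer than 100 UMIs Pdgfra was at 61.8 CPM (45.1-82.7), Pdgfrb at 28.8 CPM (17.9-44.1), Pdgfb and Pdgfc at 15.1 CPM (7.54-27.0) each, Pdgfa at 9.61 CPM (3.86-19.8) and Pdgfd at 4.12 CPM (0.850-12). Levels of that size in an E12 class can hold free RNA, and its part in them was not tested. The tables of the other stages held no such barcodes.

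Among the ligands, Pdgfb was concentrated in coronary cells, and Pdgfd was higher there than in endocardial cells at P2 and in the adult. Pdgfa did not differ beyond counting error between coronary and endocardial cells with the overlapping classes. Pdgfc had few UMIs, those at E12 mostly in non-endothelial cells. Among the receptors, Pdgfra was high in valve cells from E15 on and in fibroblast-like cells. Pdgfrb was found in embryonic endocardial cells and, after birth, in cells with mural or fibroblast markers. The plot of levels by class and stage shows all 6 genes.

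**Figure D1:**
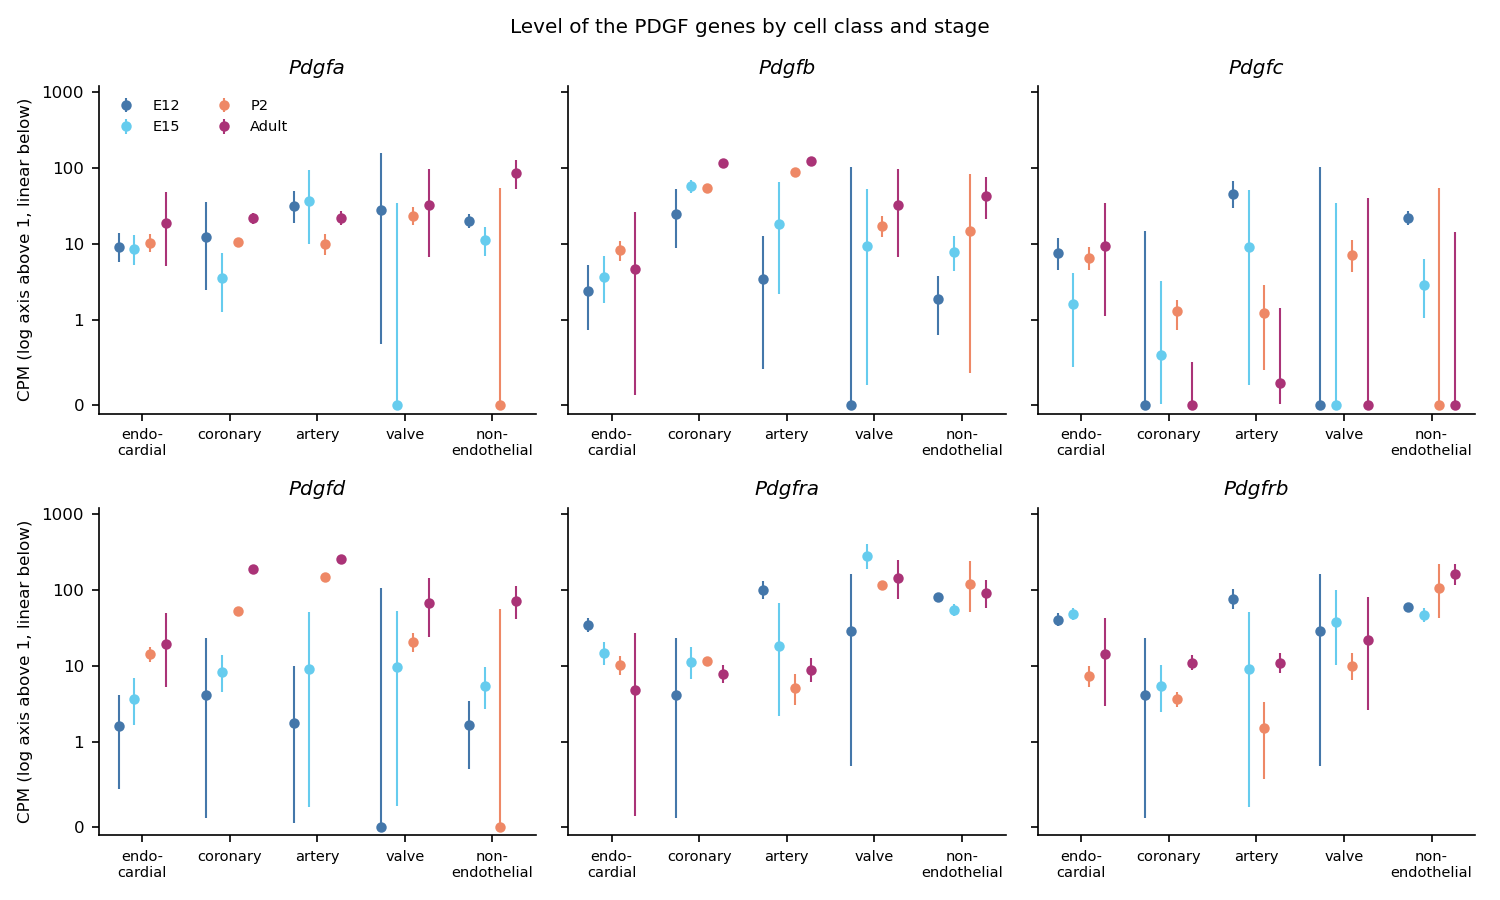
CPM of the 6 PDGF genes (vertical axis, logarithmic above 1 and linear below) in 5 cell classes, with 1 colour for each stage. Points are summed UMIs of 1 library and bars exact 95% Poisson intervals. Pdgfb and Pdgfd stand highest in coronary and artery cells of the adult, and Pdgfra stands between 115 and 276 CPM in valve cells from E15 on.

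The table of RefSeq promoters for the GRCm38.p6 assembly listed 4 of the 6 genes (Pdgfa, Pdgfc, Pdgfd and Pdgfra). The 250 bases before the start of the transcript are shown for Pdgfd, the ligand whose coronary level in the P2 and adult libraries was several times that at E15, and for Pdgfra, the receptor that set valve cells apart. The letters searched on both strands were TATAAA (the TATA box), GGGCGG (the GC box) and CCGGAA (the core of ETS sites), and matches are in capitals. No motif overlaps another here.
Pdgfd, chr9:6168236-6168485, plus strand: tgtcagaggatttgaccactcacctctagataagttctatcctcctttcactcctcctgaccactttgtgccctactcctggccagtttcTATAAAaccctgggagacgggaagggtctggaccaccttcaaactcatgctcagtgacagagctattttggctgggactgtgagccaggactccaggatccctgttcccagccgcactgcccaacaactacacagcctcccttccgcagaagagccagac
Pdgfra, chr5:75152001-75152250, plus strand: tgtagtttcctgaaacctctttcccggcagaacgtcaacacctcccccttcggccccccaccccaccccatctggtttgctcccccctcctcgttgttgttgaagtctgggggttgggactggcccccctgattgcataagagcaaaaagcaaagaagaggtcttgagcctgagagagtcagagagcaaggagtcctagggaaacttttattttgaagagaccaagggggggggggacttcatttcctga
The Pdgfd window held 1 TATAAA and the Pdgfra window none of the 3 motifs. Of the 32851 windows of this length that were searched, 12.4% held TATAAA, 32.7% GGGCGG and 12% CCGGAA. A match is a run of letters and not a measured site.

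Pdgfb, the ligand that recruits mural cells to vessels, lies at chr15:79995874-80014977 on the minus strand of GRCm38 (ENSMUSG00000000489). In coronary cells it was at 24.7 CPM (9.06-53.8) at E12, 57.7 CPM (46.8-70.4) at E15 and 55.6 CPM (52.6-58.7) at P2, while the adult cells had 119 CPM (111-127), from 6, 97, 1314 and 852 UMIs. In endocardial cells it was at 2.43, 3.68, 8.30 and 4.79 CPM, from 6, 9, 43 and 1 UMIs. Coronary cells were above endocardial cells in all 4 libraries. The ratio was 10.2 (2.72-38.1) at E12, 15.7 (7.93-35.3) at E15 and 6.70 (4.94-9.30) at P2. In the adult it was 24.7 (4.43-978), where a single endocardial UMI set it. At E12 only 12 UMIs lay in the 2 classes together, fewer than the 20 required for a call, and the coronary level was within the interval of the empty droplets.

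The share of coronary cells with a Pdgfb UMI was 5.31%, 7.26%, 22.3% and 17.8% from E12 to the adult, at median depths of 1997, 1169.5, 4561.5 and 1485 UMIs. When each cell was thinned to 500 UMIs these shares became 0.885%, 3.45%, 3.18% and 6.67%, and the P2 share was then below that at E15. In endocardial cells, at median depths of 1276.5, 1003, 4532 and 2609 UMIs, the unthinned shares were 0.350%, 0.426%, 3.23% and 1.33%. Each of these was below the coronary share of the same library.

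With each cell in 1 class only, the coronary class outside valve and artery held 63.6% of 132 Pdgfb UMIs at E15, against 20.4% of all UMIs. At P2 it held 68.7% of 1369, against 62.5% of all UMIs, and the artery class 24.8%, against 12.5%. In the adult the coronary class held 42.8% of 856, against 42.9% of all UMIs, and the artery class 55.4%, against 48.7%. At E12 53.7% of the 41 Pdgfb UMIs were in cells of no class. Non-endothelial cells had less Pdgfb than endothelial cells at E12 (1.93 against 8.29 CPM, ratio 0.233, 0.0929-0.514), at E15 (7.82 against 23.0 CPM, ratio 0.340, 0.188-0.575) and in the adult (42.8 against 114 CPM, ratio 0.374, 0.186-0.673). Most of these non-endothelial Pdgfb UMIs lay in cells that matched no marker list when the class was divided as described below. These were 6 of 8 UMIs at E12, 16 of 16 at E15 and 9 of 11 in the adult.

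Artery cells were compared with the remaining coronary cells. At P2 Pdgfb was at 92.6 CPM in artery cells and 48.6 CPM in other coronary cells, a ratio of 1.90 (1.68-2.16), and in the adult at 127 and 109 CPM, a ratio of 1.17 (1.02-1.34). Both intervals lie above 1 and neither ratio reached 2-fold. At E15 the 19 artery cells held 2 Pdgfb UMIs and the ratio was 1.07 (0.127-3.95).

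Pdgfd, a ligand of PDGFRβ that is released in a latent form and activated by proteases, lies at chr9:6168584-6378850 on the plus strand (ENSMUSG00000032006). In coronary cells it was at 4.12 CPM (0.104-22.9) at E12, 8.33 CPM (4.56-14.0) at E15 and 52.7 CPM (49.8-55.7) at P2, while the adult cells had 187 CPM (177-198), from 1, 14, 1245 and 1346 UMIs. The level in the P2 library was 6.32 times (3.75-11.6) that at E15, and the adult level 3.56 times (3.29-3.84) that at P2. Pdgfb over the same steps gave 0.962 (0.783-1.20) and 2.13 (1.95-2.33). In endocardial cells Pdgfd gave 3.88 (1.94-8.82) and 1.34 (0.356-3.58), so the higher P2 level was not particular to coronary cells. In non-endothelial cells the adult Pdgfd level was 13.0 times (5.82-30.5) that at E15, from 18 and 11 UMIs. That class differed in makeup, as 101 of its 133 adult and 181 of its 1867 E15 cells were also coronary. Its adult value therefore does not stand apart from coronary cells. These are differences between single libraries.

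Pdgfd was higher in coronary than in endocardial cells at P2 (52.7 against 14.3 CPM, ratio 3.69, 2.91-4.73) and in the adult (187 against 19.2 CPM, ratio 9.77, 3.81-35.9). At E15 the interval of the ratio included 1 (2.26, 0.913-5.93). Within coronary cells Pdgfd was higher in artery cells. At P2 artery cells had 151 CPM and other coronary cells 34.3 CPM, a ratio of 4.40 (3.93-4.93), and in the adult 256 and 113 CPM, a ratio of 2.27 (2.02-2.57). The P2 and adult intervals of Pdgfd lie above those of Pdgfb for the same cells (1.68-2.16 and 1.02-1.34). The adult Pdgfd ratio dropped to 1.57 when cells were thinned to 500 UMIs before classes were drawn. That of Pdgfb rose past the upper end of its adult interval, so the adult gap between the ligands was narrower at equal depth. No interval was drawn for thinned cells.

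The makeup of the pair Pdgfb and Pdgfd is given for each library on its own. Of the UMIs of both genes in coronary cells, Pdgfd made up 12.6% (7.07-20.3) of 111 at E15, 48.7% (46.7-50.6) at P2, and in adult cells 61.2% (59.2-63.3). In artery cells it made up 61.9% (58.7-65.1) at P2 and 66.8% (64.3-69.2) in the adult, and in other coronary cells 41.3% (38.9-43.8) and 50.8% (47.2-54.4). The share was thus higher in artery cells than in the remaining coronary cells of the same library, with intervals apart at both stages.

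Both transcripts were also looked for in the same cell. At P2 261 coronary cells had UMIs of both, where 198 would if the genes were independent, and in the adult 190, where 173 would. Of the P2 coronary cells with Pdgfb 25.4% had Pdgfd, against 17.6% of those without. In the adult these shares were 26.2% and 23.4%. Deeper cells hold more of any transcript, and cells with Pdgfb had a median of 5086.5 UMIs at P2 and 1692 in the adult, where cells without it had 4444 and 1456.5.

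**Figure D2:**
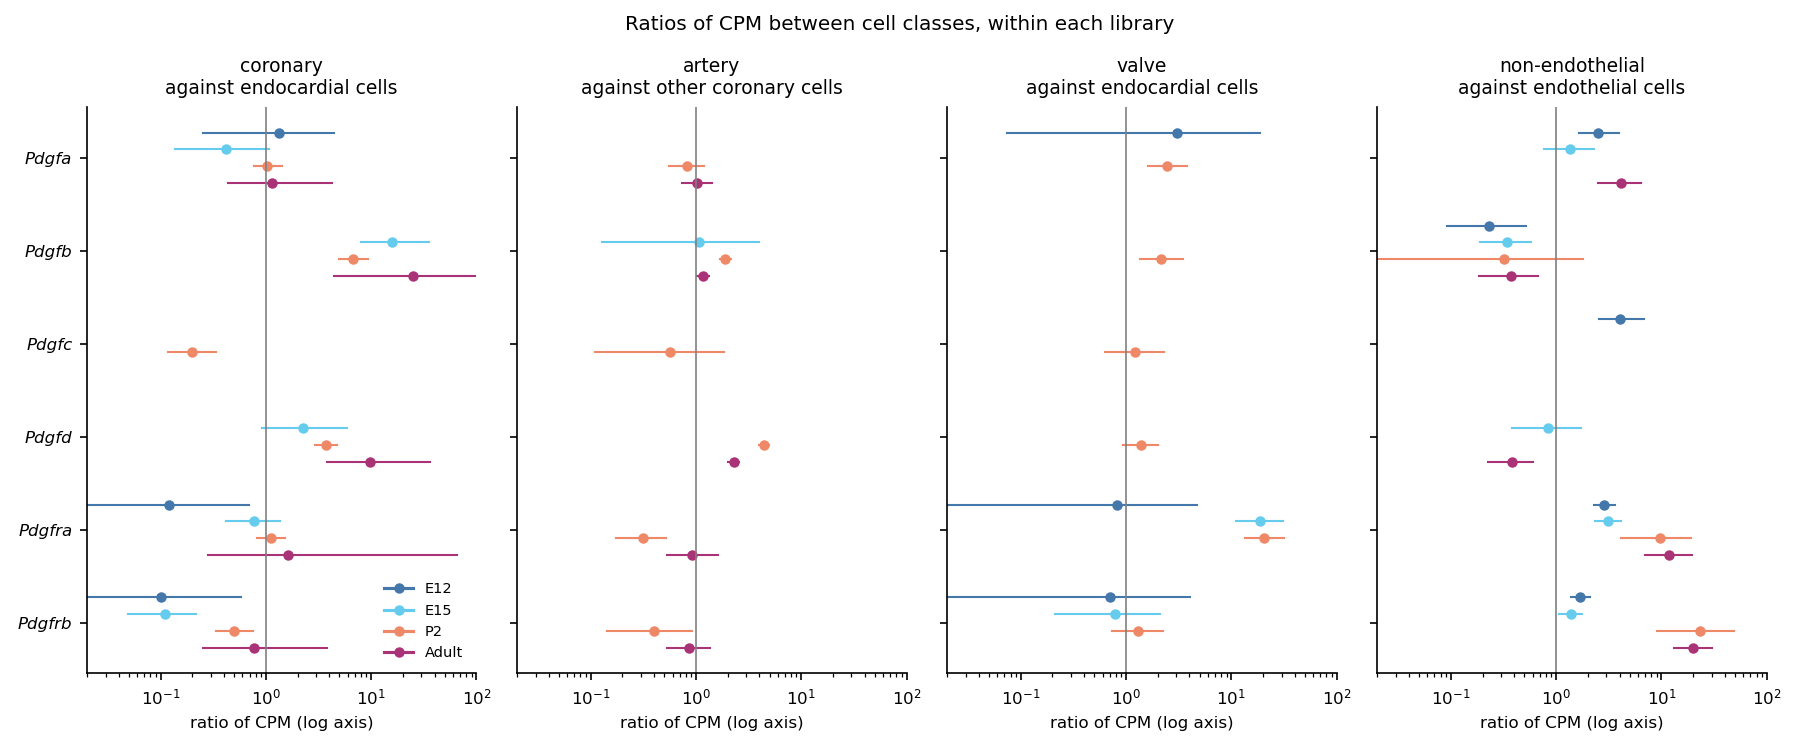
Ratio of CPM (horizontal axis, logarithmic) between 2 groups of cells of 1 library for each PDGF gene, in 4 panels for 4 comparisons, with 1 colour for each stage. Points are drawn where the 2 groups held at least 20 UMIs together and neither was at 0, lines are exact 95% intervals and end at the frame where they run past it, and the grey line marks 1. In coronary against endocardial cells the whole interval lies right of 1 for Pdgfb from E15 on and for Pdgfd at P2 and in the adult. Pdgfra lies near 20 in valve cells at E15 and P2.

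Pdgfa, a ligand of PDGFRα, lies at chr5:138976014-138997370 on the minus strand (ENSMUSG00000025856). In coronary cells it was at 12.3, 3.57, 10.7 and 22 CPM from E12 to the adult, from 3, 6, 254 and 158 UMIs. In endocardial cells it was at 9.30, 8.58, 10.4 and 19.2 CPM, from 23, 21, 54 and 4 UMIs. The classes did not differ beyond counting error in any library, with ratios of 1.33 (0.255-4.40), 0.416 (0.137-1.07), 1.03 (0.766-1.41) and 1.15 (0.439-4.26). At P2 the interval leaves room for no more than a 1.41-fold excess on the coronary side. With each cell in 1 class, E15 coronary cells had 2.08 CPM from 3 UMIs and endocardial cells 9.17 CPM from 17. No interval was drawn for that setting. The 5 E15 coronary cells with a Pdgfa UMI had 1853 CPM of the mural list and the others 113 CPM. In the adult the 135 such cells had 3923 CPM and the others 270 CPM.

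Pdgfa was higher in P2 valve cells, and in non-endothelial cells at E12 and in the adult. Of the 427 P2 valve cells 235 were also in the coronary class and 145 in the endocardial class. At P2 valve cells had 23.6 CPM (18-30.5) from 59 UMIs and endocardial cells outside the valve class 9.58 CPM (6.90-12.9), a ratio of 2.47 (1.63-3.76). At E12 non-endothelial cells had 20.3 CPM and endothelial cells 8.04 CPM, a ratio of 2.52 (1.66-3.92), and in the adult 85.6 and 20.8 CPM, a ratio of 4.11 (2.50-6.45). At E15 the ratio was 1.35 (0.774-2.29). The adult ratio turned to 0.804 when cells were thinned to 500 UMIs first, a setting that also puts endothelial cells that lost their few endothelial UMIs into the non-endothelial class.

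Pdgfc, another ligand of PDGFRα that is activated by proteases, lies at chr3:81036416-81214040 on the plus strand (ENSMUSG00000028019). From E12 to the adult it had 115, 15, 72 and 4 UMIs, or 14.2, 2.12, 2.43 and 0.523 CPM over all barcodes. At E12 non-endothelial cells had 22.4 CPM and endothelial cells 5.53 CPM, a ratio of 4.06 (2.53-6.79), and 80.9% of the UMIs were in non-endothelial cells. The non-endothelial level lies within the interval of the E12 empty droplets (7.54-27.0 CPM). The highest E12 class level was in the Cxcl12/Glul class, 46.1 CPM (30.1-67.6). At P2 endocardial cells had 6.56 CPM and coronary cells 1.31 CPM, a coronary to endocardial ratio of 0.200 (0.119-0.335). In the adult no Pdgfc UMI was seen in 4077 coronary cells, which allows up to 0.417 CPM.

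Pdgfra, the receptor for PDGF-A and PDGF-C, lies at chr5:75152292-75198215 on the plus strand (ENSMUSG00000029231). In valve cells it was at 28.4 CPM (0.720-158) at E12, 276 CPM (185-397) at E15 and 115 CPM (102-130) at P2, while the adult cells had 143 CPM (76.1-244), from 1, 29, 288 and 13 UMIs. Endocardial cells outside the valve class were at 34.6, 14.8 and 5.70 CPM at E12, E15 and P2 and had no UMI in the adult. The ratio was 18.6 (11-31.3) at E15 and 20.2 (13.4-31.8) at P2. At E12 no difference was detectable with 1 valve UMI (0.822, 0.0206-4.71). In the adult the 22 valve cells had 13 UMIs and the 70 other endocardial cells 0, which puts the exact lower limit of the ratio at 6.21, from fewer than the 20 UMIs required for a call.

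Valve cells held 77.0% of the 374 Pdgfra UMIs at P2, with each cell in 1 class, while the class held 8.42% of all UMIs. That setting counts a cell as valve before coronary. Of the valve cells 235 of 427 at P2 and 15 of 22 in the adult were also in the coronary class. Outside the valve class the P2 coronary cells held 50 of their 271 Pdgfra UMIs. At P2 26.0% of valve cells had a Pdgfra UMI at a median depth of 5144 UMIs. The valve class also carried more of the fibroblast or mesenchyme list (Col1a1, Col1a2, Col3a1, Dcn, Lum, Tcf21, Sox9 and Vcan) than the endocardial class in 3 libraries, 2644 against 1399 CPM at E12, 1972 against 1409 CPM at P2 and 7192 against 3439 CPM in the adult, and less at E15, 801 against 1127 CPM. Its endothelial list was at 1564 CPM at E12, 2250 CPM at E15, 5132 CPM at P2 and 4806 CPM in adult cells. In endocardial cells that list was at 2012, 3246, 6120 and 8382 CPM. At E15 valve cells with a Pdgfra UMI had 702 CPM of the fibroblast or mesenchyme list and those without 881 CPM, a ratio of 0.797 (0.498-1.26). At P2 they had 3531 and 1416.5 CPM, and in the adult, with 5 such cells, 14358 and 5109 CPM. The part of matrix-producing cells in the valve values was not tested.

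The coronary class at P2 also had 271 Pdgfra UMIs, in 116 cells, and 235 coronary cells were also in the valve class. Leaving valve cells out of both sides lowered coronary cells from 11.5 to 2.26 CPM (1.68-2.98) and endocardial cells from 10.2 to 5.70 CPM (3.69-8.42). The coronary to endocardial ratio went from 1.12 (0.832-1.53) to 0.396. At E15 the same step moved it from 0.768 (0.416-1.38) to 0.367. Among the P2 coronary cells, those with a Pdgfra UMI had 4130 CPM of the fibroblast or mesenchyme list and those without 263 CPM, and in the adult 12743 and 505 CPM.

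Pdgfrb (ENSMUSG00000024620), the receptor for PDGF-B and PDGF-D, is known as a mark of pericytes and smooth muscle. Here it was also counted in the embryonic endocardial class. Endocardial cells had 40.4 CPM (32.9-49.2) at E12, 48.2 CPM (39.9-57.8) at E15 and 7.33 CPM (5.19-10.1) at P2, while the adult cells had 14.4 CPM (2.96-42.0), from 100, 118, 38 and 3 UMIs. Coronary cells had 4.12, 5.36, 3.64 and 11 CPM, from 1, 9, 86 and 79 UMIs. The coronary to endocardial ratio was 0.102 (0.00255-0.580) at E12, 0.111 (0.0496-0.218) at E15 and 0.496 (0.335-0.747) at P2. The adult ratio was 0.765 (0.252-3.79). Coronary cells were thus below endocardial cells in the 3 earlier libraries, and no difference was detectable in the adult with 3 endocardial UMIs.

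In endocardial cells with at least 1 UMI of Pecam1, Cdh5 or Egfl7 Pdgfrb was at 37.4 CPM (28.6-48.0) at E12 and 46.7 CPM (37.5-57.6) at E15. At E15 78 of the 105 endocardial cells with a Pdgfrb UMI (74.3%) had such a UMI. The endothelial list was lower in the E15 cells with a Pdgfrb UMI than in the others (2668 against 3287 CPM), the fibroblast or mesenchyme list higher (1864 against 1076 CPM) and the mural list higher (193 against 84.0 CPM). Whether other cells or their RNA added to the endocardial level was not tested. The E12 level lies within the interval of the empty droplets (17.9-44.1 CPM), and no such reference was at hand at E15.

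The balance of the 2 receptors differed between classes of 1 library. Pdgfra made up 68.2% (55.6-79.1) of the UMIs of both receptors in the E12 empty droplets, 57.1% (53.0-61.2) in non-endothelial cells and 34.4% (24.9-45) in endocardial cells with an endothelial UMI. At E15 it made up 53.9% (46.8-60.8) in non-endothelial cells, 20.7% (13.6-29.5) in endocardial cells with an endothelial UMI and 87.9% (71.8-96.6) in valve cells. At P2 the share was 92.0% (88.4-94.8) in valve cells and 58.2% (47.4-68.5) in endocardial cells with an endothelial UMI. In P2 endocardial cells outside the valve class it was 42.4% (29.6-55.9).

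After birth Pdgfrb stood out in the few non-endothelial cells. In the adult these had 159 CPM and endothelial cells 7.98 CPM, a ratio of 20.0 (13.1-30.3), and at P2 105 and 4.53 CPM, a ratio of 23.1 (9.10-48.9) from 7 UMIs in 13 cells. At E12 and E15 the ratio was 1.70 (1.38-2.11) and 1.38 (1.06-1.78). For Pdgfra the same ratios were 2.86 (2.30-3.59), 3.11 (2.33-4.16), 9.65 (4.14-19.2) and 11.8 (6.94-19.5) from E12 to the adult. Both receptors were higher in non-endothelial cells in every library, by at least 2-fold in all 4 for Pdgfra and in the later pair for Pdgfrb. With cells thinned to 500 UMIs first, the P2 and adult ratios were 1.82 and 4.14 for Pdgfra and 3.99 and 3.45 for Pdgfrb.

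**Figure D3:**
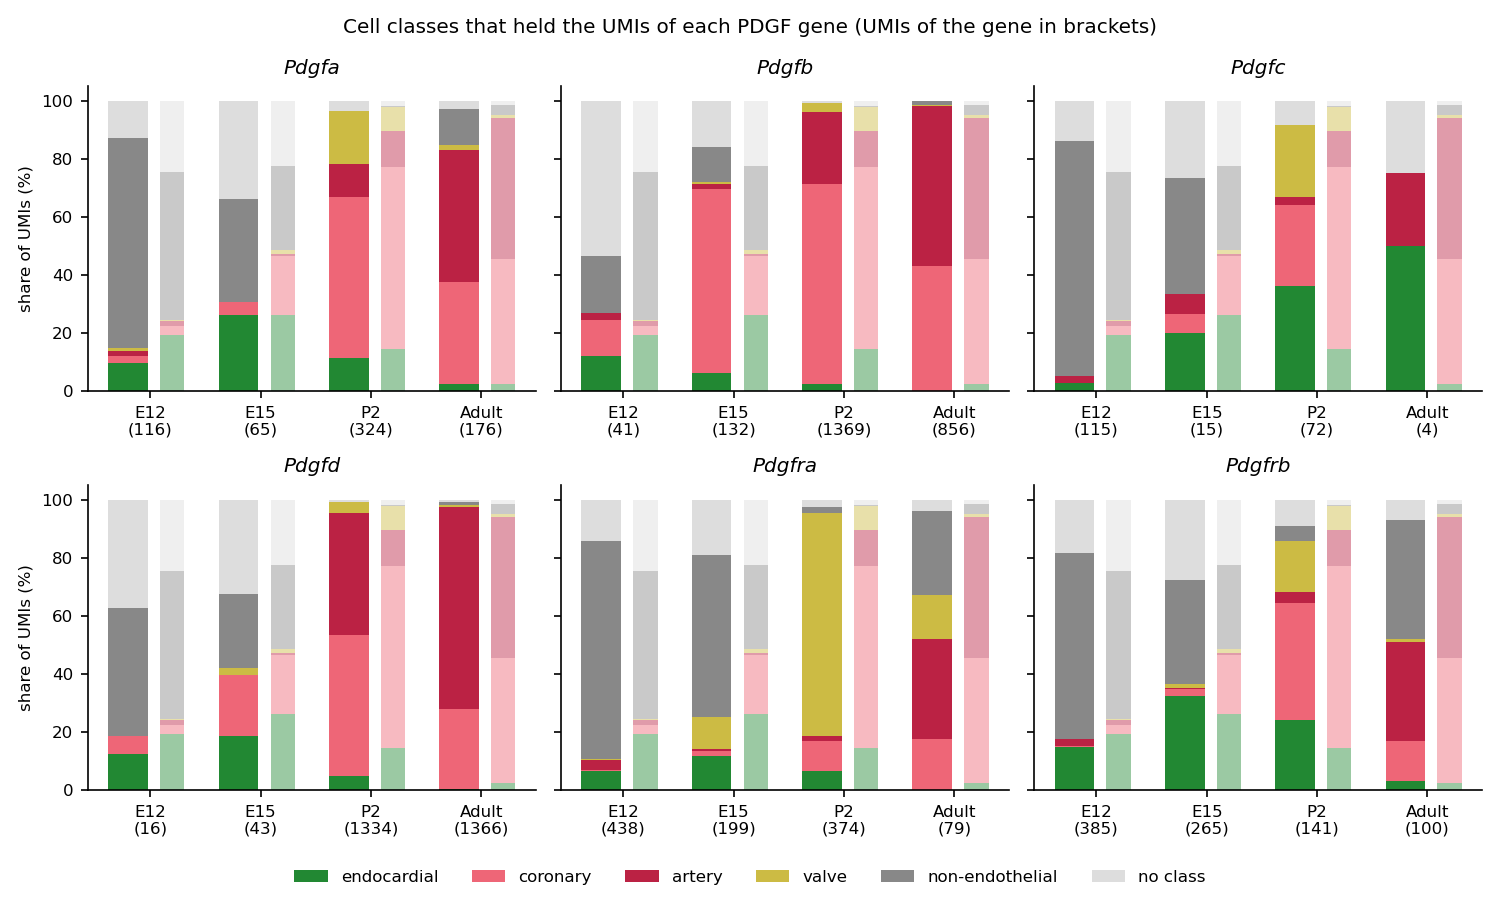
Share of the UMIs of each PDGF gene (wide bars, %) and of all UMIs of the library (narrow pale bars, %) that lay in each cell class, by stage. Each cell is in 1 class, in the order non-endothelial, valve, artery, coronary, endocardial, and the UMIs of the gene are in brackets. Valve cells held 77.0% of the P2 Pdgfra UMIs, and non-endothelial cells 41.0% of the adult Pdgfrb UMIs.

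The non-endothelial cells were divided by the marker list with the most UMIs, at least 3, a rule set after seeing the data. In the adult 26 of the 133 cells were mural-like and 35 fibroblast-like. A further 65, at a median of 827 UMIs, fell to no list. At E12 1108 of 2995 cells and at E15 1142 of 1867 cells fell to no list. The 65 adult cells had Pdgfb at 154 CPM (70.6-293) from 9 UMIs and Pdgfd at 137 CPM (59.3-270) from 8. The mural-like cells had Rgs5 at 10516 CPM, Acta2 at 9994 CPM and Dcn at 34.8 CPM. The fibroblast-like cells had Dcn at 16678 CPM and Rgs5 at 16.9 CPM. Rgs5 and Acta2 are pericyte and smooth muscle genes, and Dcn is a matrix gene of fibroblasts. These genes are in the lists that drew the subsets, so their levels do not test the names.

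The adult mural-like cells had Pdgfrb at 452 CPM (295-662) from 26 UMIs and no Pdgfra UMI, which allows up to 52.1 CPM. The fibroblast-like cells had Pdgfra at 186 CPM (117-282) from 22 UMIs and Pdgfrb at 127 CPM (71.0-209) from 15. Pdgfra thus made up 0 of 26 receptor UMIs in the mural-like and 22 of 37 in the fibroblast-like cells. At P2 the 5 mural-like cells had 6 Pdgfrb UMIs and no Pdgfra UMI, and the 5 fibroblast-like cells 8 Pdgfra UMIs and 1 Pdgfrb UMI. At E12 no such division was seen. There 205 mural-like cells had 77.0 CPM (48.8-116) of Pdgfra and 80.4 CPM (51.5-120) of Pdgfrb, and 1567 fibroblast-like cells 101 CPM (88.4-114) and 68.9 CPM (58.8-80.2). The mural-like Pdgfra level lies within the interval of the E12 empty droplets (45.1-82.7 CPM), and the part of free RNA in it was not tested. At E15 the 31 mural-like cells had 2 Pdgfra UMIs and 1 Pdgfrb UMI. The 644 fibroblast-like cells had 86.3 CPM (68.3-107) of Pdgfra and 62.2 CPM (47.1-80.6) of Pdgfrb. At every stage the names of the subsets rest on the highest list.

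The ligands also differed between the subsets. Pdgfa was at 295 CPM (172-473) in the adult mural-like cells, from 17 of the 22 UMIs of all non-endothelial cells, and at 33.8 CPM (9.21-86.6) in the fibroblast-like cells. Pdgfd was at 76.1 CPM (34.8-144) in the adult fibroblast-like cells, from 9 UMIs, and Pdgfb had no UMI there. At E12 Pdgfc was at 70.3 CPM (43.5-108) in the mural-like and 24.7 CPM (18.9-31.9) in the fibroblast-like cells. The fibroblast-like level lies within the interval of the E12 empty droplets (7.54-27.0 CPM).

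**Figure D4:**
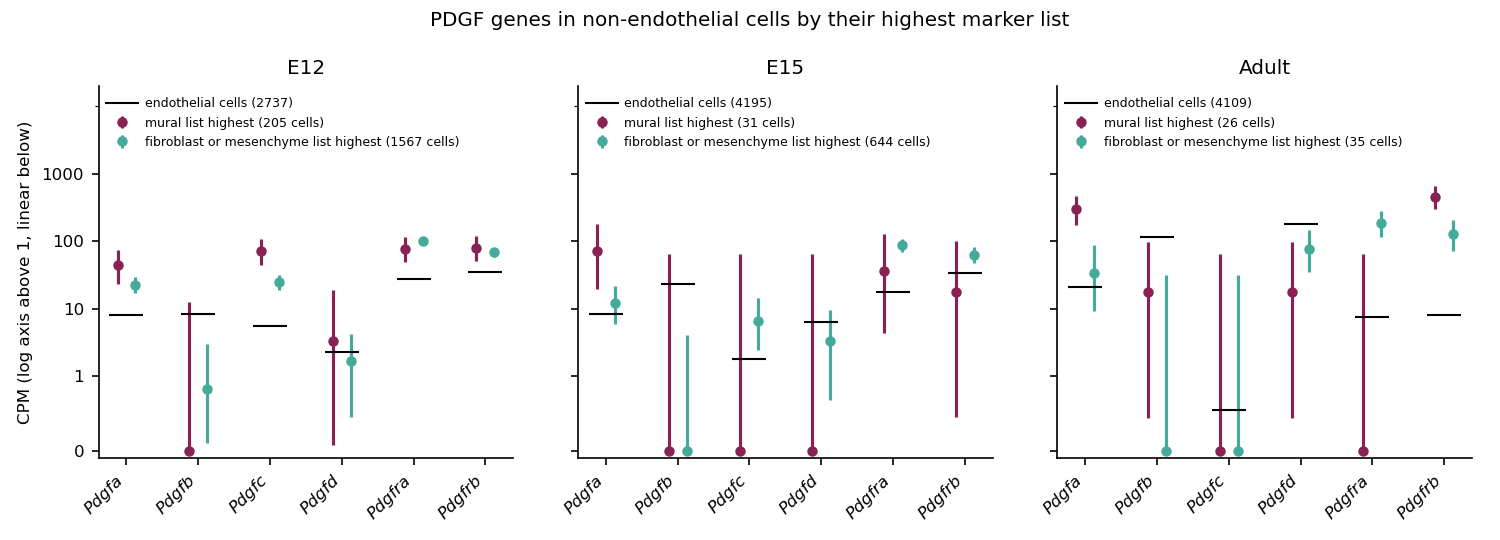
CPM of the 6 PDGF genes (vertical axis, logarithmic above 1 and linear below) in non-endothelial cells whose highest marker list was the mural or the fibroblast or mesenchyme list, at E12, E15 and in the adult. Points are summed UMIs with exact 95% Poisson intervals, and black dashes are the level in endothelial cells. In the adult Pdgfrb and Pdgfa stand highest in the mural-like cells, at 452 and 295 CPM, and Pdgfra in the fibroblast-like cells at 186 CPM.

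Adult coronary cells with a receptor UMI, summed as a group, had higher levels of the mural or fibroblast lists. How many of these cells held such UMIs was not counted. The 43 coronary cells with a Pdgfrb UMI had 13198 CPM of the mural list and the other coronary cells 207 CPM. Their fibroblast or mesenchyme list was at 10484 against 492 CPM. Their endothelial list was at 2532 against 7401 CPM, and their median depth 3268 against 1474 UMIs. Of the 43 cells 27 had a UMI of Pecam1, Cdh5 or Egfl7. At P2 the mural list was at 2377 CPM in the 61 coronary cells with a Pdgfrb UMI and at 39.0 CPM in the others. The fibroblast or mesenchyme list was at 3075 and 336 CPM in the same P2 cells. The part of these cells in the coronary receptor levels was not tested.

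The members called in each comparison were set against all genes. A call needed at least 20 UMIs over both groups, a ratio of at least 2-fold and an interval excluding 1. Between coronary and endocardial cells 2 of 3 members tested were called at E12 (background 9.27% of all genes tested), 2 of 5 at E15 (15.9%), 4 of 6 at P2 (19.8%) and 2 of 5 in adult cells (15%). From E12 to the adult 0, 1, 2 and 2 of the called members were higher in coronary cells and 2, 1, 2 and 0 lower. Between artery and other coronary cells 0 of 1 was called at E15 (2.89%), 3 of 6 at P2 (7.07%) and 1 of 5 in adult cells (5.08%). At P2 1 was higher in artery cells and 2 lower, and the adult member was higher. Between valve and endocardial cells 0 of 3 were called at E12 (2.04%), 1 of 3 at E15 (4.89%) and 3 of 6 at P2 (6.74%), and no member had enough UMIs in the adult (15.9%). All members called there were higher in valve cells. Between non-endothelial and endothelial cells 4 of 5 were called at E12 (10.6%), 2 of 5 at E15 (8%), 2 of 6 at P2 (7.63%) and 5 of 5 in adult cells (15.6%). From E12 to the adult 3, 1, 2 and 3 of these were higher in non-endothelial cells and 1, 1, 0 and 2 lower. Of the 6 members 5 had at least 20 UMIs in the E12, E15 and adult libraries and 6 at P2.

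Pdgfb is also known as a gene of endothelial tip cells, the cells that lead vessel sprouts. Coronary cells with a Pdgfb UMI (6, 91, 1026 and 725 cells from E12 to the adult) were therefore compared with the other coronary cells for 12 tip cell genes. The sum of the 12 genes was 1860 against 1510 CPM at P2, a ratio of 1.23 (1.20-1.26), and 1316 against 1146 CPM in the adult, a ratio of 1.15 (1.09-1.21). At E15 it was 1.16 (1.00-1.33), just above 1, and at E12 the interval included 1 (0.659, 0.281-1.32). Most UMIs of the sum were of Cd34, 23953 of 37806 at P2 and 5288 of 8482 in the adult. The ratio of Cd34 alone was 1.15 (1.11-1.18) at P2 and 1.08 (1.01-1.16) in the adult. Of the 12 genes 9 at P2, 6 in the adult, 1 at E15 and none at E12 had an interval above 1, and none had one below 1. Among all genes with at least 20 UMIs the share with an interval above 1 was 9.95% at P2, 4.66% in adult cells, 2.29% at E15 and 2.65% at E12. Of the tip cell genes with that many UMIs it was 9 of 12, 6 of 12, 1 of 10 and 0 of 3. The median log2 ratio of these was 0.51 at P2 and 0.36 in adult cells, and that of all genes -0.01 and 0.02.

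At P2 the largest ratios in the list were those of Esm1, a secreted proteoglycan of tip cells, at 2.47 (1.80-3.37), and of the chemokine receptor Cxcr4 at 2.12 (1.49-3.0). In the adult Apln, the ligand of the apelin receptor, was at 2.09 (1.56-2.77) and Angpt2, a ligand of Tie2, at 1.81 (1.19-2.70). Kcne3, a potassium channel subunit, was the single gene above 1 at E15, at 2.35 (1.49-3.58). At P2 Cxcl12, an arterial chemokine and one of the genes that define the artery class, was at 2.15 (2.04-2.26), and the gap junction genes Gja5 and Gja4 at 1.99 (1.70-2.32) and 1.20 (1.11-1.30). In the adult they were at 1.20 (1.15-1.26), 1.28 (0.985-1.65) and 1.45 (1.17-1.78), and the interval of Gja5 included 1. Among the other members, Pdgfd was at 1.41 (1.25-1.59) and Pdgfa at 0.617 (0.435-0.857) in P2 cells with Pdgfb.

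The adult ratio of the tip cell list did not hold at a lower depth. It was 0.892 when cells were thinned to 500 UMIs and 1.35 among coronary cells outside the artery class, while the P2 ratio was 1.28 after thinning.

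**Figure D5:**
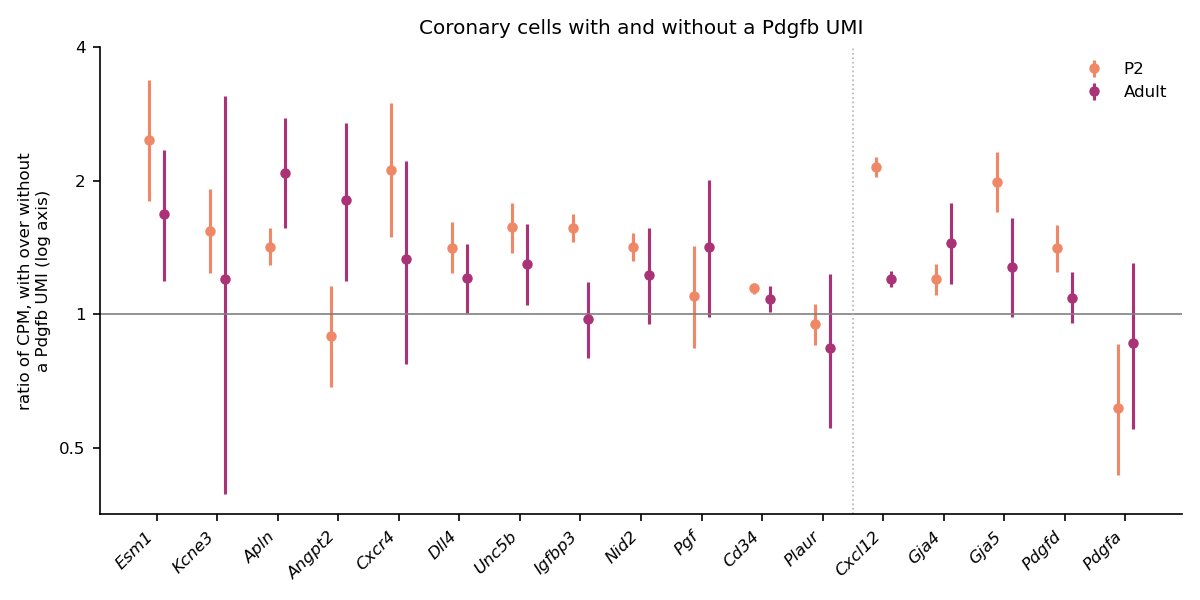
Ratio of CPM in coronary cells with a Pdgfb UMI to that in other coronary cells (vertical axis, logarithmic) for the 12 tip cell genes, left of the dotted line, and for 5 other genes, at P2 and in the adult. Bars are exact 95% intervals and the grey line marks 1. At P2 9 of the 12 tip cell genes lie above 1 with their whole interval, and Pdgfa lies below it.

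Other genes of the pathway were taken from a list of 28: co-receptors, proteases that activate PDGF-C and PDGF-D, matrix partners, signal transducers, phosphatases and feedback inhibitors. Between coronary and endocardial cells 26, 26, 27 and 26 of them were tested from E12 to the adult. Of these 1, 5, 6 and 5 were called higher in coronary cells and 4, 2, 2 and 1 lower, or 19.2%, 26.9%, 29.6% and 23.1% of the genes tested, beside the background of 9.27%, 15.9%, 19.8% and 15%. The median log2 ratio of the list was -0.29, -0.08, 0.03 and 0.10, and that of all genes tested -0.07, -0.12, -0.09 and -0.12.

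Nrp2, a co-receptor of the neuropilin family, was called higher in coronary cells in all 4 libraries, with ratios of 10.5 (6.39-17.2), 5.05 (3.63-7.14), 4.25 (3.64-4.98) and 5.38 (2.60-13.4). Sparc, a matrix protein that binds PDGF-B, was called from E15 on, at 2.04 (1.95-2.15), 2.50 (2.44-2.55) and 3.65 (3.16-4.25). Plat, the tissue plasminogen activator and an activator of PDGF-C, was called at E15 and P2, at 2.96 (2.19-4.02) and 2.43 (2.21-2.67). Spry1, a feedback inhibitor of receptor tyrosine kinases, was at 14.8 (7.13-37.0) at P2, where endocardial cells had 7 UMIs. Kit, a kinase receptor related to the PDGF receptors, was lower in coronary cells at P2, at 0.385 (0.342-0.435).

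Between non-endothelial and endothelial cells 28, 27, 27 and 26 genes of the list were tested, of which 3, 3, 4 and 4 were called higher in non-endothelial cells and 3, 0, 2 and 3 lower. This was 21.4%, 11.1%, 22.2% and 26.9% of the list, beside 10.6%, 8%, 7.63% and 15.6% of all genes, and at E15 the list was near the background. Lrp1, an endocytic receptor that acts with PDGFRβ, was called higher in all 4 libraries, with ratios of 2.59 (2.05-3.31), 5.30 (3.78-7.52), 69.0 (21.0-178) and 26.1 (17.9-37.8), the P2 value from 5 UMIs in non-endothelial cells. Like Pdgfrb it was far higher in non-endothelial cells after birth than in endothelial cells of the same library.

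The genes whose levels ran most like each member were ranked over 20 points, 5 classes at 4 stages with each cell in 1 class, by Pearson correlation of log2(CPM + 10) among 10366 genes. The points share libraries and depths, the smallest class had 12 cells, and the values are descriptions. For Pdgfb they were Btnl9 (r = 0.96), Hlx (0.95), Rgcc (0.94) and Ssu2 (0.94), and for Pdgfd Ly6a (0.97), Aqp7 (0.96), Car7 (0.95) and Lims2 (0.95). For Pdgfra they were Nkd1 (0.83), Efemp2 (0.81), Timp1 (0.78) and Emid1 (0.77), and for Pdgfrb Bicc1 (0.90), Rab34 (0.86), Chpf (0.86) and Tbx20 (0.86). For Pdgfa they were Adar (0.89), Oxnad1 (0.86), Impact (0.83) and Il33 (0.81), and for Pdgfc St8sia2 (0.89), Cdon (0.84), Slc27a1 (0.83) and Efna5 (0.83). By Spearman correlation 1 to 3 of the 4 genes of each member were again among its first 4. Between members the highest values were those of Pdgfb with Pdgfd (r = 0.78, Spearman 0.67) and of Pdgfra with Pdgfrb (0.67, Spearman 0.70).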

How the data were processed

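Single-cell 3' RNA libraries were made by the authors with 10x Genomics version 2 chemistry from sorted CD31+/CD45- heart cells. The authors aligned the reads with Cell Ranger 2.2 to mm10, and the deposited values are UMI counts for each gene and barcode, whole numbers without normalization. The E15, P2 and adult tables hold called barcodes. The E12 table holds 737280 barcodes, and 5732 of these, at a minimum of 452 UMIs, were taken as cells (0.1 of the 0.99 quantile of the 3000 largest barcodes, after Cell Ranger). They hold 88.7% of its UMIs.

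No further filter was set on barcodes. Doublets were left in, and their removal with the Scrublet algorithm (score over 0.15, which takes out 278, 444, 319 and 155 barcodes) was an alternative, as were the UMI, gene and mitochondrial limits of the study. UMIs were summed for each class, with exact Poisson, binomial and conditional binomial 95% intervals (Python 3.11.15, numpy 2.4.6, scipy 1.17.1, pandas 2.3.3). The intervals of ratios were run on simulated Poisson counts, the model that they assume. That run checks the calculation and does not cover spread between cells. Where a group has no UMI, 3 UMIs over the group are the limit given. No p-value was computed, because each stage is 1 library. Genes with fewer than 20 UMIs over both groups were not called.

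The genes named are the 6 members, the lists of pathway, tip cell and cell type genes, and the 4 genes most like each member among those with at least 200 UMIs. The members and lists were chosen with earlier results of these data known. Gene positions are from GENCODE M21 on GRCm38.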

Additional observations from a re-analysis of the deposited data

How the results depend on the processing

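Each member's ratio at each stage, 72 values in all, was recomputed under other settings, giving 530 values. Of these 492 stayed within the interval of the reported ratio, 37 moved and 1 reversed. A further 62 settings gave no value. Thinning every cell to 500 UMIs before the classes were drawn moved most. In non-endothelial against endothelial cells it gave log2 ratios for Pdgfra of 2.46, 1.19, 0.87 and 2.05 from E12 to the adult, for Pdgfrb of 1.99 at P2 and 1.79 in the adult, and for Pdgfa of -0.31 in the adult, a reversal. It gave 5.83 for Pdgfra in valve cells at E15, 2.51 for Pdgfd in coronary against endocardial cells at P2, 1.72 (P2) and 0.65 (adult) for Pdgfd in artery cells, and 0.51 for Pdgfb in adult artery cells. For the tip cell list it gave 0.61, 0.50, 0.36 and -0.16 from E12 to the adult, the last a reversal. Thinning puts cells that lose their few endothelial UMIs into the non-endothelial class. At E12 the non-endothelial log2 ratio of Pdgfra was 1.88 without Scrublet doublets and 1.90 as a mean over cells. With each cell in 1 class Pdgfd in coronary against endocardial cells at P2 was 1.25. Among coronary cells outside the artery class, an alternative added after seeing the data, the adult tip cell ratio was 0.44. Pathway calls numbered 4 in place of 7 in coronary cells at E15 with a minimum of 50 UMIs, and with a 1.5-fold limit 8 in place of 3 at E15 and 11 in place of 7 in the adult for non-endothelial cells. The settings that kept only cells with an endothelial UMI, or no valve cells, were also added after seeing the data.

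No paired analysis was possible because each stage is 1 library. Depth limits the E12 coronary class (113 cells), the adult endocardial class (75 cells) and the P2 non-endothelial class (13 cells), where single UMIs set a ratio.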
